A study of Mus musculus with 6 samples.

Results

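The genes described here are 5 of the CCN matricellular genes, Ccn1 to Ccn5, and a pair of reporters of the YAP pathway, Ankrd1 and Amotl2. They were picked by symbol: a probe belonged to the set if its only gene symbol in the platform annotation was one of these names, the older names Cyr61, Ctgf, Nov, Wisp1 and Wisp2 being accepted for Ccn1 to Ccn5. That gave 9 of the 38467 probes and 7 of the 19640 named genes, with 2 probes each for Ccn1 and Ccn4 and 1 probe for each of the others. All 9 probes had a value on all 6 arrays, and none was lost to the filters used.

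The study put C3H10T1/2 cells, a mouse mesenchymal line that can form fat, muscle, bone or cartilage cells, on 6 two-colour arrays. In 3 cultures the cells had been given 1 µM dexamethasone, a synthetic glucocorticoid, for 90 minutes, and in 3 cultures DMSO, the solvent or vehicle; no other agent or allele separated the groups, and all cultures grew in medium with serum. The series description calls the 3 of each group biological replicates. Sample cDNA carried Cy3 and a common RNA pool of the same line carried Cy5, so every value is a log2 ratio against that pool and shows no absolute level. The labels list DMSO, dexamethasone and myostatin among the treatments of the pooled cells. All cells were of a single established line, so how far the response is shared by other mesenchymal cells was not measured.

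CCN proteins are secreted into the matrix, where they bind integrins and heparan sulfate proteoglycans and modulate adhesion, migration and growth factor signalling. Ccn1 and Ccn2 are immediate early genes that respond to serum, to stretch and to TGF-beta. Ccn1, Ccn2, Ankrd1 and Amotl2 are all used as readouts of YAP and TAZ, coactivators that the Hippo kinases hold in the cytoplasm and that work in the nucleus through the TEAD DNA-binding proteins. Glucocorticoids act through the glucocorticoid receptor, a transcription factor that enters the nucleus within minutes of ligand binding.

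Promoter windows from RefSeq (build GRCm38.p6, from 250 bases before to 50 bases after the gene's start) were found for 3 of the 7 genes, Ccn1, Ankrd1 and Amotl2. They are the only windows found, and these 3 genes are all read as TEAD targets. Of the 3, only Ccn1 had all dexamethasone values above all vehicle values in these data. Capitals mark the TEAD motif, searched as GGAATG on both strands, so that it reads CATTCC where it lies on the opposite strand.
Ccn1, chr3:145649936-145650235, minus strand: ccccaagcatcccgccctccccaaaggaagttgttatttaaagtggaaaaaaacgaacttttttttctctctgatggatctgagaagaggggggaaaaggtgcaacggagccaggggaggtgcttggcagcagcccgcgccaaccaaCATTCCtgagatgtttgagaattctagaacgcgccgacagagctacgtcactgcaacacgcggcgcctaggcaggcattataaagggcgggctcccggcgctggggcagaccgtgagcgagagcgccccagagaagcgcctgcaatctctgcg
Ankrd1, chr19:36119795-36120094, minus strand: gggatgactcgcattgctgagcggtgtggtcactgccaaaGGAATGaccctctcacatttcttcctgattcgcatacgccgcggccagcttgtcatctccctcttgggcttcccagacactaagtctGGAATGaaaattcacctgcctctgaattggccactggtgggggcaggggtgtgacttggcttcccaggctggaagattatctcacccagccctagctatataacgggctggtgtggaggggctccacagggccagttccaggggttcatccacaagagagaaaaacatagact
Amotl2, chr9:102717554-102717853, plus strand: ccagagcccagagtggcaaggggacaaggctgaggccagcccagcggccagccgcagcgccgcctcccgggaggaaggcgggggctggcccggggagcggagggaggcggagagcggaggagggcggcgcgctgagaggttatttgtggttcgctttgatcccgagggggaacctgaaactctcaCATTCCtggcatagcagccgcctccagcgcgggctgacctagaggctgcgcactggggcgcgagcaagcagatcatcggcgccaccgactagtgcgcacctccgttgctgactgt
The motif was present in all 3 windows, against 14.7% of the 32851 promoter windows of the same length. These genes were known readouts of YAP and TEAD beforehand, so the share is given for scale and is no test. In Ccn1 it began 103 bases before the start and in Amotl2 65 bases before it. Ankrd1 had it at 2 places, 210 and 123 bases before the start. The glucocorticoid receptor half-site AGAACA, searched on both strands and held by 19.0% of all windows, had no match in these 3. The palindrome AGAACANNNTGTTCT, in 0.00913% of all windows, and the CArG box of serum response factor, in 1.63%, had no match in them either. These are matches of letters in 300 bases, and they describe the windows only.

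A few facts of the whole series bear on all values below. Between 1695 and 4290 values were missing per dexamethasone array, against 552 to 932 per vehicle array. Array medians were -0.12, 0.57 and 0.41 for dexamethasone 1, 2 and 3, and -0.10, -0.12 and 0.16 for vehicle 1, 2 and 3. The median difference, dexamethasone minus vehicle, over all 27046 genes and unnamed probes tested was therefore 0.32 on the log2 scale, and 0.02 once each array was centred on its median. By Spearman correlation over all probes the arrays fell into 2 sets, dexamethasone 1 with vehicle 1 and vehicle 2 (0.40 to 0.55), and dexamethasone 2 and 3 with vehicle 3 (0.34 to 0.57), and the lowest correlation between arrays was -0.33, for dexamethasone 3 and vehicle 2. The labels name the dyes, and the direction of the ratio is not stated in them. Sample over pool is the likely reading, since 5 of 6 textbook glucocorticoid targets (Dusp1, Fkbp5, Per1, Tsc22d3 and Sgk1, but not Zbtb16) lay higher with dexamethasone under it; under the opposite reading all directions given here would swap. Because the pool was of the same line, the ratios cannot show whether a cell type's markers were present. Of 10 mesenchymal markers and 14 markers of endothelial, blood and epithelial cells measured, 0 passed the limma test at an adjusted p of 0.05; an unadjusted p under 0.05 was found for Twist1, a mesenchymal marker that was lower with dexamethasone, and for Cd3e, a blood marker that was higher. The median difference was -0.43 over the mesenchymal markers, with 8 of 10 below 0, against 0.93, 1.67 and 1.08 over the endothelial, blood and epithelial ones. A probe free of missing, extreme and whole-number-ratio values was held by 3 endothelial, 0 blood and 3 epithelial markers. Over such probes the median difference was -0.06 for the endothelial and 1.25 for the epithelial markers. It was -0.46 for the 9 mesenchymal markers that held one. The part of these markers, of missing values and of array sets in the results below was not tested beyond the values given.

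Ccn1 and Ccn2 had higher ratios with dexamethasone on every array, and the other 5 genes did not separate the groups. The difference came to 2.67-fold for Ccn1 and 2.02-fold for Ccn2, while Ccn3, Ccn4, Ccn5 and Amotl2 differed by no more than 0.15 on the log2 scale in either direction and Ankrd1 scattered widely among the dexamethasone cultures. None of the 7 passed the test across all genes. limma called 0 of the 7 genes and 0 of the 9 probes with p adjusted by Benjamini-Hochberg at 0.05, as it called 0% of the 27046 genes and unnamed probes and 0% of the 36465 single probes. Of the 7 genes, 2 had an unadjusted p under 0.05, both higher and 0 lower, where 5.43% of all genes and unnamed probes lay under it (4.43% higher and 0.995% lower). All 3 dexamethasone values lay above all 3 vehicle values for those same 2 genes, and for 10.4% of all; the reverse order held for 0 of the 7 and 6.42% of all.

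**Figure D1:**
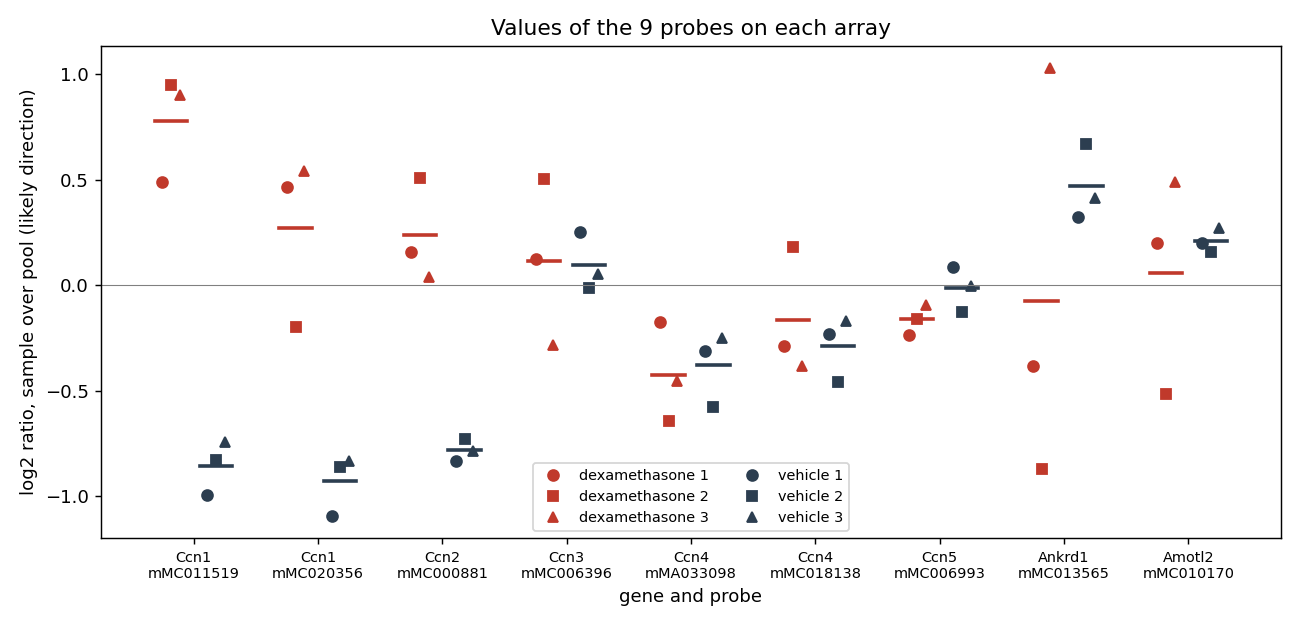
Log2 ratio against the pool (vertical axis) of each of the 9 probes on each array, dexamethasone in red to the left of vehicle in dark blue, with a short line at each group's mean of 3 arrays. Both Ccn1 probes and the Ccn2 probe have all dexamethasone points above all vehicle points, and the points of the other 6 probes overlap.

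Ccn1 encodes an adhesive protein that binds integrins and acts on cell migration, survival and senescence. Averaged over its probes, its log2 ratio was 0.48, 0.37 and 0.72 in dexamethasone cultures 1, 2 and 3, against -1.04, -0.85 and -0.79 in vehicle cultures 1, 2 and 3. All dexamethasone values lay above all vehicle values. The arrays were not centred, so the distance of a value from 0 was not read as its distance from the pool. The group means were 0.52 ± 0.18 with dexamethasone and -0.89 ± 0.13 with vehicle (SD, n = 3 each), a difference of 1.42 ± 0.19 (SE) with a 95% interval of 0.92 to 1.91. In limma its unadjusted p was 0.000706, rank 79 of 27046, and its adjusted p was 0.239.

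The 2 probes of Ccn1 had the same direction and differed in size. Probe mMC011519 read 0.487, 0.946 and 0.901 with dexamethasone, against -0.993, -0.829 and -0.745 with vehicle, a difference of 1.63 ± 0.20 (SE). Probe mMC020356 read 0.463, -0.200 and 0.543 with dexamethasone, against -1.09, -0.861 and -0.835 with vehicle, a difference of 1.20 ± 0.26 (SE). On vehicle arrays the probes differed by little, and the largest gap between them was on dexamethasone 2, the array with the highest median. As deposited, the lower reading there still stayed above every vehicle value of its probe. Relative to the array medians it lay slightly below the vehicle 2 value of that probe, so the groups of mMC020356 overlapped on that scale.

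Ccn2, connective tissue growth factor, is a matrix-associated protein known for its role in fibrosis, cartilage formation and the response to TGF-beta. Its single probe gave 0.159, 0.508 and 0.040 with dexamethasone, against -0.835, -0.728 and -0.783 with vehicle. The vehicle values were tightly grouped, and all dexamethasone values lay above them. Means were 0.24 ± 0.24 with dexamethasone and -0.78 ± 0.05 with vehicle (SD, n = 3 each), a difference of 1.02 ± 0.20 (SE) with a 95% interval of 0.50 to 1.54. Its limma adjusted p was 0.440 and its unadjusted p 0.00381, rank 232.

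Within each set of arrays the Ccn1 and Ccn2 differences had nearly the size of the pooled ones. Their sign there was fixed in advance, since all dexamethasone values of both genes lay above all vehicle values. Each set also held a single array of 1 group, so these values describe sizes and are no test. In dexamethasone 1 minus the mean of vehicle 1 and vehicle 2 the difference was 1.42 for Ccn1 and 0.94 for Ccn2, where the median of all genes and unnamed probes was -0.05. In the mean of dexamethasone 2 and 3 minus vehicle 3 it was 1.34 for Ccn1 and 1.06 for Ccn2, where the median of all was 0.24. After median centring of each array Ccn1 differed by 1.11 and Ccn2 by 0.71, and after quantile normalization by 1.50 and 1.16. With the centring the unadjusted p of Ccn2 was 0.0567 in limma (adjusted p = 0.738). Relative to the array medians, Ccn1 read 0.592, -0.200 and 0.315 with dexamethasone, against -0.942, -0.728 and -0.947 with vehicle, and Ccn2 read 0.276, -0.065 and -0.367 with dexamethasone, against -0.734, -0.611 and -0.940 with vehicle. With Ccn1 averaged over its probes, the groups of both genes stayed apart on that scale, while the dexamethasone values lay on both sides of 0.

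**Figure D2:**
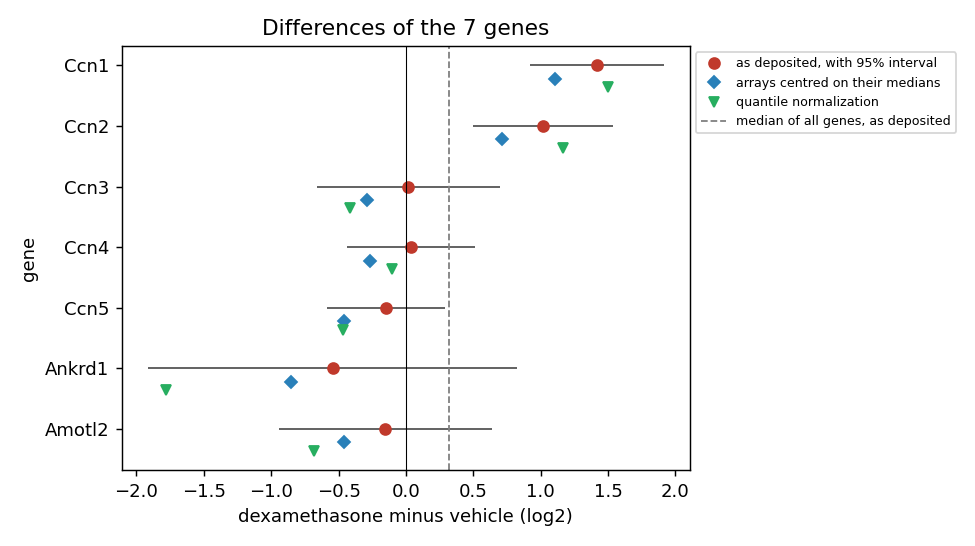
Difference, dexamethasone minus vehicle, on the log2 scale (horizontal axis) for each gene as deposited with its 95% interval (red), after median centring (blue diamonds) and after quantile normalization (green triangles); the dashed line is the median of all genes and unnamed probes, 0.32. The intervals of Ccn1 and Ccn2 lie above 0 and above the dashed line, and those of the other 5 genes span 0.

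The remaining CCN genes gave small differences. Ccn3, which encodes a growth-restraining member of the family formerly called Nov, had 0.122, 0.505 and -0.284 with dexamethasone, against 0.253, -0.013 and 0.051 with vehicle. The groups overlapped completely, and the difference of 0.02 ± 0.27 (SE) had a 95% interval of -0.66 to 0.70. Ccn4, first described as a Wnt-induced gene, had 2 probes, and their average was -0.23, -0.23 and -0.42 with dexamethasone, against -0.27, -0.52 and -0.21 with vehicle. Its difference was 0.04 ± 0.19 (SE), with a 95% interval of -0.44 to 0.52. The Ccn4 probes lay on either side of 0, at -0.05 ± 0.21 for mMA033098 and 0.12 ± 0.22 for mMC018138 (SE). As for Ccn1, they were farthest apart on dexamethasone 2, at -0.645 and 0.183.

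Ccn5, the member that lacks the C-terminal cystine knot module of its relatives, had -0.236, -0.158 and -0.093 with dexamethasone, against 0.087, -0.125 and -0.003 with vehicle. A single vehicle culture lay within the dexamethasone values, and the difference was -0.15 ± 0.17 (SE), with a 95% interval of -0.58 to 0.29. The intervals of Ccn3, Ccn4 and Ccn5 all end below the Ccn2 difference of 1.02. Those of Ccn3 and Ccn4 still overlap the Ccn2 interval of 0.50 to 1.54, and that of Ccn5 ends below it. Their limma adjusted p ran from 0.763 for Ccn5 to 0.982 for Ccn3. After median centring they were -0.29 for Ccn3, -0.27 for Ccn4 and -0.46 for Ccn5, so the sign of Ccn3 and Ccn4 depended on the scaling.

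Ankrd1 encodes a nuclear ankyrin repeat protein of muscle and other mechanically loaded cells and is a standard YAP target. It read -0.381, -0.871 and 1.027 with dexamethasone, against 0.323, 0.670 and 0.411 with vehicle. Dexamethasone 1 and 2 lay below all vehicle cultures and dexamethasone 3 above all of them. The SD was 0.99 with dexamethasone and 0.18 with vehicle (n = 3 each), and the difference of -0.54 ± 0.54 (SE) had a 95% interval of -1.91 to 0.83 and a limma adjusted p of 0.740. Single arrays set its value: the difference was -1.09 without dexamethasone 3, -0.15 without dexamethasone 2 and -0.39 without dexamethasone 1. After quantile normalization it was -1.78, with a limma unadjusted p of 0.0363 and an adjusted p of 0.792.

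Amotl2 encodes an angiomotin-like scaffold that binds YAP and is itself induced by it, a negative feedback arm of the pathway. Its values were 0.198, -0.514 and 0.488 with dexamethasone, against 0.200, 0.158 and 0.273 with vehicle. The vehicle values lay close together inside the wider spread of the dexamethasone values. The difference was -0.15 ± 0.31 (SE), with a 95% interval of -0.94 to 0.64 and a limma adjusted p of 0.860, and it was 0.13 without dexamethasone 2, where it was lowest. It was -0.46 after median centring and -0.68 after quantile normalization.

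Setting genes against each other on the same array removes any shift that an array gives to all its probes. Ccn1 and Ccn2 were singled out because they separated the groups, so these values describe the size of the gap and are no test. Each of the pair minus each of the other 5 genes was higher with dexamethasone, by 0.98 for Ccn2 minus Ccn4 up to 1.96 for Ccn1 minus Ankrd1 on the log2 scale. Ccn1 minus Amotl2, for instance, was 0.277, 0.887 and 0.234 with dexamethasone, against -1.243, -1.003 and -1.063 with vehicle. Ccn1 minus Ccn2 was 0.29 ± 0.41 with dexamethasone and -0.11 ± 0.10 with vehicle (SD, n = 3 each), and the groups overlapped, so the larger response of Ccn1 was within the spread.

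**Figure D3:**
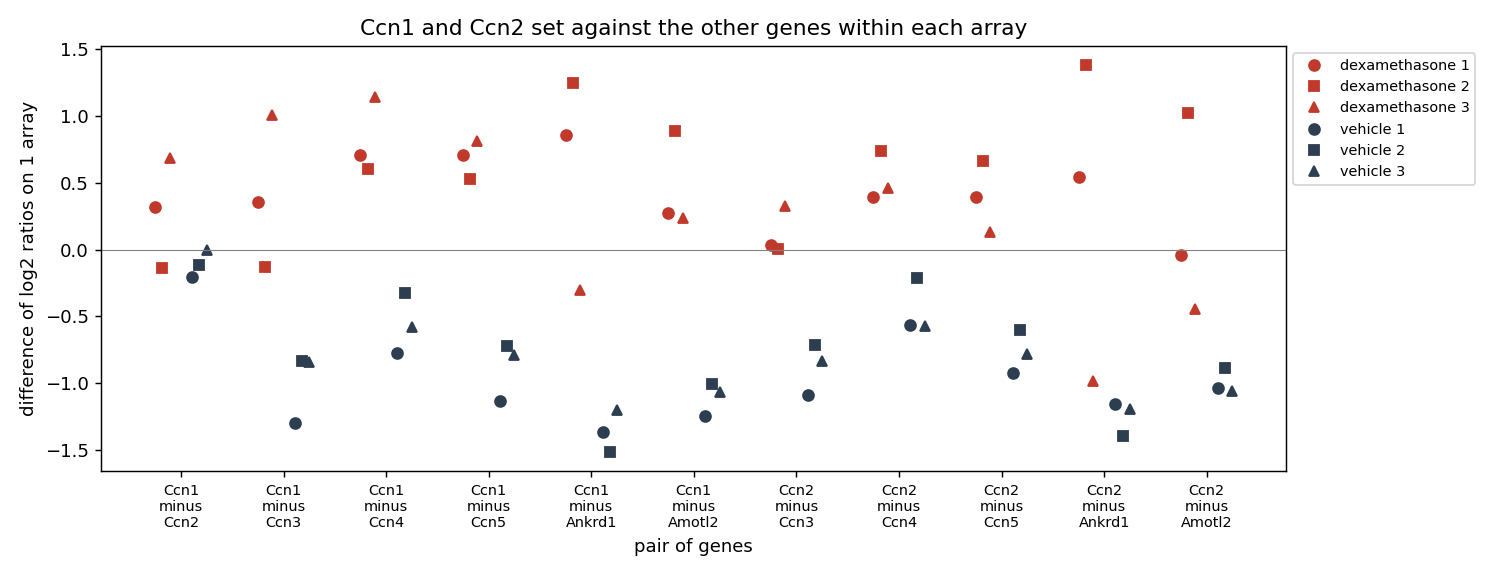
Difference between the log2 ratios of a pair of genes on the same array (vertical axis) for 11 pairs, dexamethasone in red to the left of vehicle in dark blue. In the 10 pairs that set Ccn1 or Ccn2 against another gene all red points lie above all blue points, while they overlap for Ccn1 minus Ccn2; only the distance between groups carries meaning, since levels of different probes are not comparable.

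Genes whose 6 array values lay nearest to those of Ccn1 and Ccn2 were ranked by root mean square difference among the named genes measured on all arrays. Nearest to Ccn1 were Ctla2b (0.18), the cofilin phosphatase gene Ssh2 (0.19), Jcad (0.19), the vitamin D receptor gene Vdr (0.21) and the scaffold gene Grasp (0.22). Nearest to Ccn2 were Tns1 (0.10), which encodes the focal adhesion protein tensin, then Micall1 (0.16), the forkhead factor gene Foxq1 (0.16), Grasp (0.17) and the zinc transporter gene Slc39a14 (0.17). Grasp stood in both lists. Ccn2 ranked 33 by nearness to Ccn1, and Ccn1 ranked 57 by nearness to Ccn2, of 16509 genes. The other members lay far down, with Ccn4 the nearest of them at rank 2961 for Ccn1 and 1183 for Ccn2, and Ankrd1 the farthest at 11452 and 11565. The ranks describe 6 arrays that share a treatment split and the same pool.

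None of the wider Hippo and YAP pathway passed limma's adjusted test. Of 20 measured genes of the Hippo kinases, coactivators and TEAD proteins, 0 passed at the adjusted p. An unadjusted p under 0.05 was found for 1 higher and 1 lower gene, where 4.43% of all were higher and 0.995% lower. The median difference of the 20 was 0.08, against 0.32 for all genes. With only probes free of missing, extreme and whole-number-ratio values it was 0.13 for the 20, near the 0.17 for all. All dexamethasone values lay above all vehicle values for 4 of the 20 and below them for 5, where 10.4% and 6.42% of all genes and unnamed probes did so. The higher one was Tead4, a TEAD DNA-binding partner of YAP, with 0.54, 0.67 and 0.19 with dexamethasone, against -1.15, -1.05 and -1.09 with vehicle. That is 2.96-fold, a difference of 1.56 ± 0.20 (SE), and its limma adjusted p was 0.228. Vgll3, a vestigial-like cofactor of TEAD proteins, was the lower one, with -0.07, -0.26 and -0.49 with dexamethasone, against 0.53, 0.49 and 0.37 with vehicle (difference -0.73 ± 0.19, SE, limma adjusted p = 0.697). Tead3 came next by p and differed by 0.56 ± 0.25 (SE). The coactivators themselves, named after their values were seen, differed by 0.19 ± 0.21 for Yap1 and -0.09 ± 0.17 for Wwtr1, which encodes TAZ (SE).

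Among 18 other known YAP and TAZ targets the median difference was -0.06; 0 passed at the adjusted p, and 2 higher genes and 1 lower gene had an unadjusted p under 0.05, where 4.43% of all were higher and 0.995% lower. The groups did not overlap for 7 of the 18. Dexamethasone lay above vehicle for 2 and below it for 5, where 10.4% and 6.42% of all genes and unnamed probes did so. Fjx1 read 0.55, 0.51 and 0.26 with dexamethasone, against -0.21, -0.31 and -0.09 with vehicle, a difference of 0.65 ± 0.19 (SE). The forkhead gene Foxf2 differed by 0.58 ± 0.18 (SE). Gadd45a, a growth arrest and DNA damage gene, read -0.71, -0.51 and -0.60 with dexamethasone, against 0.01, -0.01 and -0.08 with vehicle, a difference of -0.58 ± 0.17 (SE). The limma adjusted p of all 3 was 0.732. After median centring the differences were 0.34 for Fjx1, 0.28 for Foxf2 and -0.89 for Gadd45a. Their limma unadjusted p were then 0.344, 0.383 and 0.0238, so only Gadd45a stayed under 0.05. The differences over the 18 ran from -0.58 to 0.65, so the Ccn1 and Ccn2 differences lay above all of them. Lats2, a Hippo kinase gene that YAP induces in feedback and which was named after its value was seen, differed by 0.03 ± 0.16 (SE).

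Serum response factor and the actin cytoskeleton form another route by which Ccn1 is known to be induced. Among 14 measured genes of that route, none had an unadjusted p under 0.05, where 5.43% of all genes and unnamed probes did. Their median difference was 0.01, and 0 passed limma's adjusted test. Mrtfa, a coactivator of that factor, came first by p and differed by 0.42 ± 0.21 (SE). Vcl, which encodes vinculin, differed by -0.22 ± 0.18 and Actb by -0.40 ± 0.33 (SE). The differences over the 14 ran from -0.40 to 1.23. The highest was that of Tagln, named after its value was seen, with an SE of 1.49.

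Of 11 measured receptors and co-receptors of CCN proteins, 0 passed at the adjusted p. The median difference was 0.35, close to that of all genes. An unadjusted p under 0.05 was found for 1 higher gene, where 4.43% of all genes and unnamed probes were higher. That gene was Sdc4, the heparan sulfate proteoglycan syndecan-4. It read 0.74, 1.18 and 1.11 with dexamethasone, against -0.38, -0.59 and -0.24 with vehicle. The groups were well apart, at 2.67-fold (1.42 ± 0.22, SE, on the log2 scale; limma adjusted p = 0.296). The integrin gene Itgb1 differed by 0.52 ± 0.32 and the receptor gene Notch1 by -0.29 ± 0.39 (SE).

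Among 11 other matricellular genes measured, 0 passed at the adjusted p, with a median difference of 0.00. An unadjusted p under 0.05 was found for 1 higher gene, where 4.43% of all genes and unnamed probes were higher. Smoc1, a secreted calcium-binding protein gene that opposes BMP signalling, had no value on dexamethasone 1 and read 1.52 and 3.17 on dexamethasone 2 and 3, against -1.82, -0.93 and -0.89 with vehicle. Its fitted difference of 3.56 ± 0.66 (SE), 11.8-fold, therefore rests on 2 dexamethasone arrays of the same set, with a limma adjusted p of 0.475. Tgfbi differed by -0.43 ± 0.22 and Thbs2 by -0.34 ± 0.19 (SE). The sixth family member, Ccn6, was not analysed here.

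**Figure D4:**
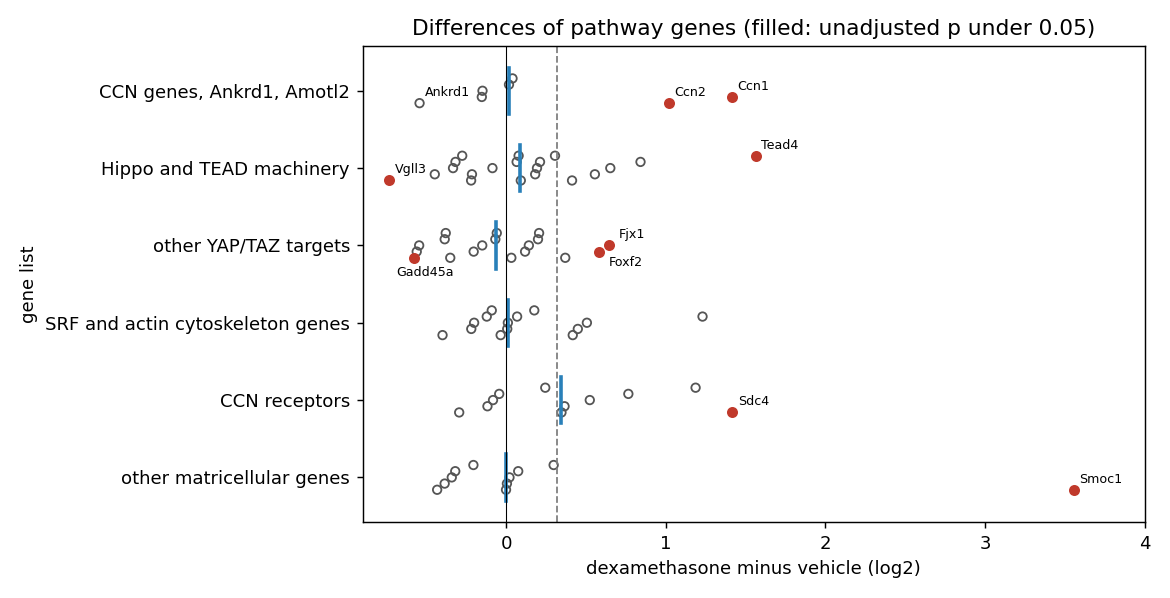
Difference, dexamethasone minus vehicle, on the log2 scale (horizontal axis) of each measured gene in 6 lists, filled where limma's unadjusted p was under 0.05; the blue bar is a list's median and the dashed line the median of all genes and unnamed probes, 0.32. Ccn1, Ccn2, Tead4 and Sdc4, all filled, lie between 1.02 and 1.56, as do Tagln and Itgam, which are not filled. Smoc1 lies at 3.56, and most other genes lie nearer to 0.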

How the data were processed

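The table holds 1 value per probe and array. Per the labels' protocols, sample cDNA was coupled to Cy3 and the pool to Cy5; limma is named in the submitters' processing notes without a version. How the background was corrected, the arrays normalized and spots filtered is not given in the sources used here. The values the authors deposited were read as log2 ratios, judged from their sign, range and decimals. On 4 arrays some deposited values exceed 100 in size, so the authors' columns there are strictly a score on a scale that is log2 for nearly all probes. Scale and direction are inferred, and the columns are not centred.

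Probes were named through the supplied platform annotation: 29456 had 1 symbol, 760 several and 8251 were unlisted, and updating through a RefSeq table changed 0 symbols. Probes of a gene were averaged, and 2 values per group were required. limma 3.58.1 in R 4.3.3 (lmFit, eBayes) was fitted on the whole table without a block or further normalization, two-sided, taking the pool to be the same on all arrays, with Benjamini-Hochberg adjustment at 0.05, and again on single probes. SE and 95% intervals are moderated, SD is over 3 arrays, and fold is 2 to the power of the difference. The number of arrays limits the precision. Per list, the 3 smallest p were named, at most 2 in each direction, with the 5 profiles nearest to Ccn1 and to Ccn2. Members, lists, tests and alternatives were chosen with earlier results of these data known. Alternatives covered normalization, filters, blocks, weights, the prior, probe averaging and each array left out.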

Additional observations from a re-analysis of the deposited data

How the results depend on the processing

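Under 16 alternatives to the fit of gene averages, 0 of the 7 genes and 0 of the 9 probes passed limma's adjusted test in any, and the Ccn1 difference (1.11 to 1.50), the Ccn2 difference (0.71 to 1.16), that of Ccn5 (-0.46 to -0.10) and that of Ankrd1 (-1.78 to -0.15) kept their sign. The lowest adjusted p were 0.0659 for Ccn1 and 0.0841 for Ccn2, both without dexamethasone replicate 1; over the alternatives they reached 0.990. The count of the 7 genes under an unadjusted p of 0.05 was 2, fell to 1 with median centring (Ccn1), was 3 with quantile normalization, which added Ankrd1, and ran from 2 to 3 with 1 array left out. Over all genes and unnamed probes 0 passed, against 29 after a low-signal filter (only probes valued on all arrays, within 10 in size and never equal to the log2 of a quotient of integers up to 10) and 5 with probes valued on all 6 arrays; 1468 lay under an unadjusted p of 0.05, against 2312 with array weights and from 695 (without vehicle replicate 2) and 786 (without vehicle replicate 1) to 6947 (without dexamethasone replicate 1) with 1 array left out. Of those 29, 0 were among the 7 genes (0.169% of 17152 passed), with an adjusted p of 0.0768 for Ccn1 and 0.205 for Ccn2.

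Signs turned where differences were near 0. Ccn3 was -0.29 with median centring, -0.42 with quantile normalization, -0.022 with array weights, and from -0.18 to 0.22 with 1 array left out. Ccn4 was -0.27 with median centring, -0.10 with quantile normalization, and from -0.052 to 0.10 with 1 array left out. Amotl2 was -0.46 with median centring and -0.68 with quantile normalization, and ran from -0.37 to 0.13 with 1 array left out, being above 0 without dexamethasone replicate 2. Median centring lowers the difference of every gene valued on all arrays by the same amount. The cause of the other changes was not tested. Read as pool over sample, the differences would be -1.42 for Ccn1, -1.02 for Ccn2, -0.017 for Ccn3, -0.039 for Ccn4, 0.15 for Ccn5, 0.54 for Ankrd1 and 0.15 for Amotl2.

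With the replicate number as a block 0 genes passed, and Ccn1 (1.42 ± 0.24, SE) had a limma adjusted p of 0.707. The deviations of same-numbered arrays from their group means had Spearman coefficients of 0.278, -0.173 and 0.347 for numbers 1, 2 and 3, so the numbers were not taken as pairs; by the same deviations dexamethasone 1 lay nearer to vehicle 2 (0.331) than to vehicle 1. The low-signal filter works on the ratios alone, since signal over background was not used here.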
